A study of Homo sapiens with 20 samples.

Results

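The genes described here encode the subunits of the receptors for GABA and glutamate, the main inhibitory and excitatory transmitters of the vertebrate brain. They were chosen by name alone: every protein-coding gene of the table whose symbol is that of a GABA-A receptor subunit, an ionotropic glutamate receptor subunit or a metabotropic glutamate receptor. The rule found 45 of the 60232 genes, of which 19896 are protein coding. There are 19 GABA-A receptor genes, 8 metabotropic receptor genes, 7 NMDA receptor genes, 5 kainate receptor genes, 4 AMPA receptor genes and 2 delta receptor genes. RNA was sequenced from 5 human gastric cancer cell lines after 72 h with DCB (decitabine, which enters replicating DNA in place of cytidine and holds DNA methyltransferases there) or with DMSO, its solvent control. Epstein-Barr virus is carried by YCCEL1 and SNU719 (EBV+) and not by AGS, HGC27 and SNU16 (EBV-). The CpG island methylator phenotype is present in YCCEL1, SNU719 and AGS (CIMP+) and not in the remaining pair of lines (CIMP-). The study's text gives HGC27 as CIMP- in one place, but its methods list MKN74 and not HGC27 among the EBV- lines. The name in the labels is used here, and which of these lines was sequenced was not settled. Each line and treatment has 2 libraries, 20 in all. The genotype of every line is given as wild type, each line is a single established culture, and the labels leave unsaid whether the libraries of a group are separate cultures. The p-values therefore reflect only how far these libraries spread, which may be technical, except in the fits over several lines with a term for the line. There the spread also holds differences in response between lines, and the libraries of a line are counted as independent.

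GABA-A receptors are chloride channels built from 5 subunits, usually α, β and a γ or other subunit around a central pore. AMPA, kainate and NMDA receptors are cation channels built from 4 subunits, the delta receptors are their close relatives that bind cerebellins at synapses, and the metabotropic receptors signal through G proteins. Most of these genes are used mainly by neurons, while some (GABRP, GABRE) are also known from epithelia and other tissues.

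DCB acts on the methylation of CG pairs. The start of 6 of the genes called higher with DCB below is therefore shown as 300 bases, with each CG pair in capitals. These are 250 bases before and 50 after the RefSeq transcription start (GRCh38.p14), 5′ to 3′ on the gene's strand. GABRE (chrX:151974627-151974926, minus strand) and GABRQ (chrX:152637645-152637944, plus strand) lie in the receptor cluster of the X chromosome, and GRIN3B (chr19:1000169-1000468, plus strand) and GRIK3 (chr1:37034466-37034765, minus strand) have no other subunit gene within 2000000 bases. GABRA2 (chr4:46390251-46390550, minus strand) and GABRG1 (chr4:46124005-46124304, minus strand) are neighbours on chromosome 4, and the RefSeq start used for GABRA2 lies inside the gene's span in the table.
GABRE: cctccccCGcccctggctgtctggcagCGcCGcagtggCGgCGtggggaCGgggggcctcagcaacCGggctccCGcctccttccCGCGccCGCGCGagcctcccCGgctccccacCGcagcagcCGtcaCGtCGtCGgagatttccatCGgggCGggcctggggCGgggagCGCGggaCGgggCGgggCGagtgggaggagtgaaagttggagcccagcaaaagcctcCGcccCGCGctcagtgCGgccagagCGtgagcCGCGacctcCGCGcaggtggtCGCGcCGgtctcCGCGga
GABRQ: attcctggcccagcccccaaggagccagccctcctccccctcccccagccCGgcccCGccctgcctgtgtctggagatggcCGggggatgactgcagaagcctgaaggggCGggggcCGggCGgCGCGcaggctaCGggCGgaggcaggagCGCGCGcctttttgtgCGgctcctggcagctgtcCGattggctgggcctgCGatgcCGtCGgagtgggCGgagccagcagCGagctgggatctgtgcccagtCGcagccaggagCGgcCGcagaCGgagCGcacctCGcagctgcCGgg
GRIN3B: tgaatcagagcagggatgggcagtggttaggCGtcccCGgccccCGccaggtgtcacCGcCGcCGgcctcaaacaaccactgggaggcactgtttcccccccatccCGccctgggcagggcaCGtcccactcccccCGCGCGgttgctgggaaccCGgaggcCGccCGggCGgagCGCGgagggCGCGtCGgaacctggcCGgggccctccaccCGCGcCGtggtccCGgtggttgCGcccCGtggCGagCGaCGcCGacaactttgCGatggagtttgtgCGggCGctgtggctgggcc
GRIK3: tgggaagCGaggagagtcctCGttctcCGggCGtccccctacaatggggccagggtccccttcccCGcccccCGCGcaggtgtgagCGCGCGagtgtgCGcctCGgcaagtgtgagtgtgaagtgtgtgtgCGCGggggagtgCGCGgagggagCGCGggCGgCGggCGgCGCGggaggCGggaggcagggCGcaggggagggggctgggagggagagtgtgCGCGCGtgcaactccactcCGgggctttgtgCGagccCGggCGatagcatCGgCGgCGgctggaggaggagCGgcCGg
GABRA2: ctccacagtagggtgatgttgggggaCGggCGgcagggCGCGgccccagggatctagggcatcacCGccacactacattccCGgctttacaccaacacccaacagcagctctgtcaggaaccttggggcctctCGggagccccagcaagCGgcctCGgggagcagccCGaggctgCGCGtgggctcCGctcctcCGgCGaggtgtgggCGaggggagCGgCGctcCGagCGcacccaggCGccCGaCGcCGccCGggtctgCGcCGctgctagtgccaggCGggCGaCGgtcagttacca
GABRG1: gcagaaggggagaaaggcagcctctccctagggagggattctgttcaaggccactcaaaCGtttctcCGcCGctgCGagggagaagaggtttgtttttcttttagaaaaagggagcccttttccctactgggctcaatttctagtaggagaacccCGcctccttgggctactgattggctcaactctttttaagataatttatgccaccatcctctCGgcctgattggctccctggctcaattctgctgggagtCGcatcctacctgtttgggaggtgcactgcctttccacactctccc
These windows hold 41 CG pairs in GABRE, 37 in GRIK3, 34 in GRIN3B, 30 in GABRA2, 27 in GABRQ and 7 in GABRG1. Of the 45 genes, 32 have such a window in the RefSeq table used, with a median of 14.5 CG pairs (2 to 49), against 14 over all 35114 windows. Among the 6 windows shown, all of genes that are described below as higher with DCB, that of GABRG1 has the fewest. Of the other subunits named below as called higher with DCB, GRIN2D has 8 CG pairs in its window, GRIA1 9, GRIN2A 13 and GRM8 34. GRIN2C has no window in the RefSeq table used. The GC box GGGCGG, searched on both strands, was found in 15 of the 32 windows (46.9%), against 45.0% of all windows, and TATAAA in 1 of the 32 (3.13%, in GABRR2), against 11.5%. The left part TTCAGCACC of the element bound by the neuronal repressor REST was found in 1 of the 32 (3.13%, in GRM2), against 0.376%. Methylation of these windows was not analysed here.

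Values are normalized estimated counts as the authors deposited them, called normalized counts below. They add up to 7764408 to 9321014 a library, with lower totals with DCB than with DMSO in every line. Genes above 0 number 20851 to 22927 in the DMSO libraries and 24078 to 27026 in the DCB libraries. The lowest value of any of 12 reference genes, which every cell uses, is 65.4. A level of zero here says only that a gene is listed at 0. The cell type of HGC27 stood apart: the summed epithelial markers (EPCAM, KRT8, KRT18, KRT19, CDH1) were 485.4 to 609 in its DCB libraries and 115 to 173 in its DMSO libraries, against at least 31499 in any library of the other lines, and its fibroblast markers (COL1A1, COL1A2, COL3A1, DCN, LUM) summed to 47556 or more in all 4 HGC27 libraries, with no marker at 0. The fit over the 5 lines and the comparisons of EBV+ with EBV- lines and of CIMP+ with CIMP- lines are therefore also given without HGC27, a setting chosen after the values were seen. Of the 10 neuronal markers, 7 were at 0 in both DMSO libraries of YCCEL1, 7 in SNU719, 6 in AGS, 3 in HGC27 and 3 in SNU16.

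Most subunits were low or silent. Of the 45 genes, 38 had values adding up to more than 10 over the 20 libraries and were tested among 27350 genes. GABRR3, GRIK1 and GRM5 were listed at 0 in every library, and GABRA5, GABRA6 and GRM3 were above 0 in 1 or 2 libraries, too low to be tested. The tested genes passed that filter through whichever group was high, so counts over them are descriptions. Fewer cells with a transcript and less of it in each cell cannot be told apart in bulk RNA. GABRP, GABRA3, GABRR2, GRIN2C, GRIN2D and GRIK5 were above 0 in all 20 libraries.

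**Figure D1:**
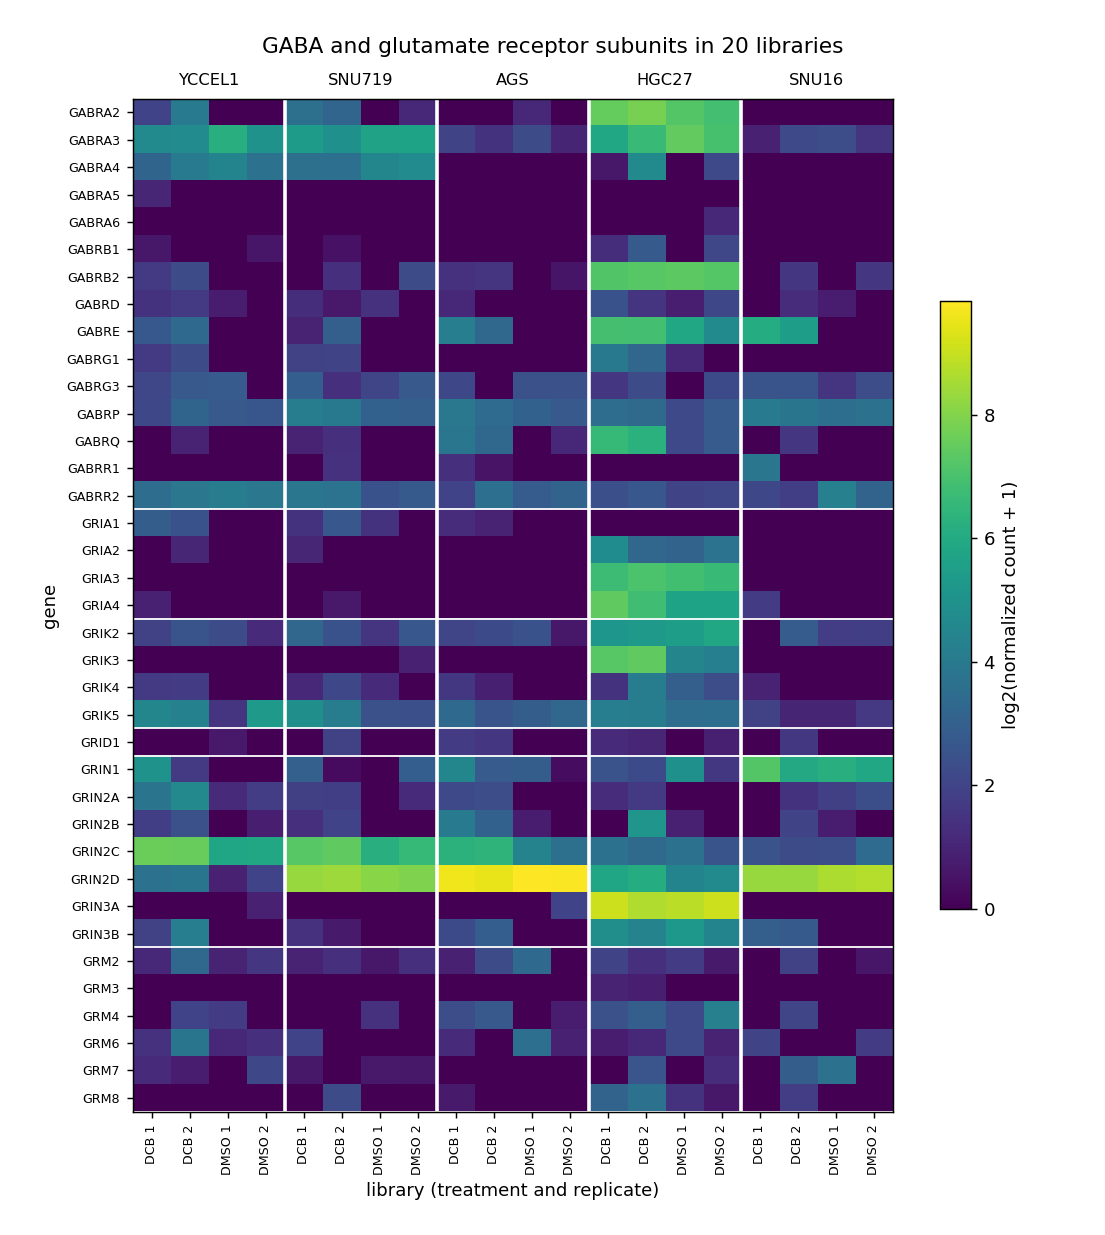
Level of 37 subunit genes above 0 in at least 1 library, as log2(normalized count + 1) by color, in the 20 libraries (columns, grouped by line, DCB left of DMSO). White lines part the families, from the top GABA-A, AMPA, kainate, delta, NMDA and metabotropic receptors. HGC27 shows bright rows (GRIN3A, GRIA3, GABRB2) that are dark in the other 4 lines, while GRIN2D is bright in AGS, SNU719 and SNU16.

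Before treatment, subunit levels differed between lines, though no more often than those of other genes. Over the 5 untreated lines 23 of the 38 tested genes (60.5%) differed (limma F test, Benjamini-Hochberg adjusted p below 0.05), against 67.7% of all tested genes. Untreated HGC27 had 28 and 33 subunits above 0 in its libraries, against 14 to 19 in the DMSO libraries of the other lines, and 14 subunits above 10 in both libraries, against 3 to 7. In HGC27 against the mean of the other 4 lines, a comparison added after the values were seen, 15 genes were called higher (adjusted p below 0.05 and a log2 fold change above 2), where 12.2% of all tested genes were, and 1 was called lower, where 7.14% were. Fold changes throughout are differences of log2(normalized count + 1), which understate the change of low genes, and none is given where both libraries of a group were listed at 0.

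The glutamate receptor genes of HGC27 included all the AMPA subunits except GRIA1, which was listed at 0 there. GRIA3, which encodes the GluA3 subunit, had normalized counts of 114 and 98.05 in untreated HGC27 and was listed at 0 in every library of the other 4 lines, treated or not. GRIA4, the GluA4 gene, had 50.9 and 51.1 in untreated HGC27, against 0 in all 8 DMSO libraries of the other lines. GRIA2, whose subunit makes AMPA receptors impermeable to calcium, had 7.82 and 12.3 in untreated HGC27, against 0 in the same 8 libraries. None of these groups overlapped, and the adjusted p was 8.91e-12 for GRIA3, 1.77e-08 for GRIA4 and 4.03e-06 for GRIA2. Among NMDA receptor genes, GRIN3A, which encodes a glycine-binding GluN3 subunit, had 453 and 544 in untreated HGC27, against at most 2.99 in the other lines (adjusted p = 3.68e-10). GRIN3B, the other GluN3 gene, had 36.4 and 20.8 in HGC27, against 0 in the 8 libraries of the other lines (adjusted p = 6.31e-07). GRIK2, which encodes a kainate receptor subunit that forms channels by itself, had 43.2 and 58.2 in HGC27, against 0.547 to 5.35 in the other lines, a log2 fold change of 3.89 ± 0.64 (SE, adjusted p = 0.000124). GRIK3, GRIK4 and GRM4 were also called higher, GRM4 with 3.51 and 18.3 in HGC27, against 0 to 2.28 in the other lines. The GRM4 call was lost without HGC27 DMSO replicate 2 (adjusted p = 0.135).

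The GABA-A genes called higher in untreated HGC27 were of the α, β, ε and θ kinds. The α genes GABRA2 (146 and 117 in HGC27, against 0 to 1.21 in the other lines) and GABRA3 (179 and 124, against 1.00 to 71.3) were called higher. So was the β gene GABRB2 (163 and 152 in HGC27, against 0 to 3.78). The log2 fold change against the mean of the 4 other lines was 3.52 ± 0.43 for GABRA3 (adjusted p = 7.72e-06). GABRE and GABRQ, the genes of the ε and θ subunits, were called higher as well, while the γ genes GABRG1 and GABRG3 were not.

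**Figure D2:**
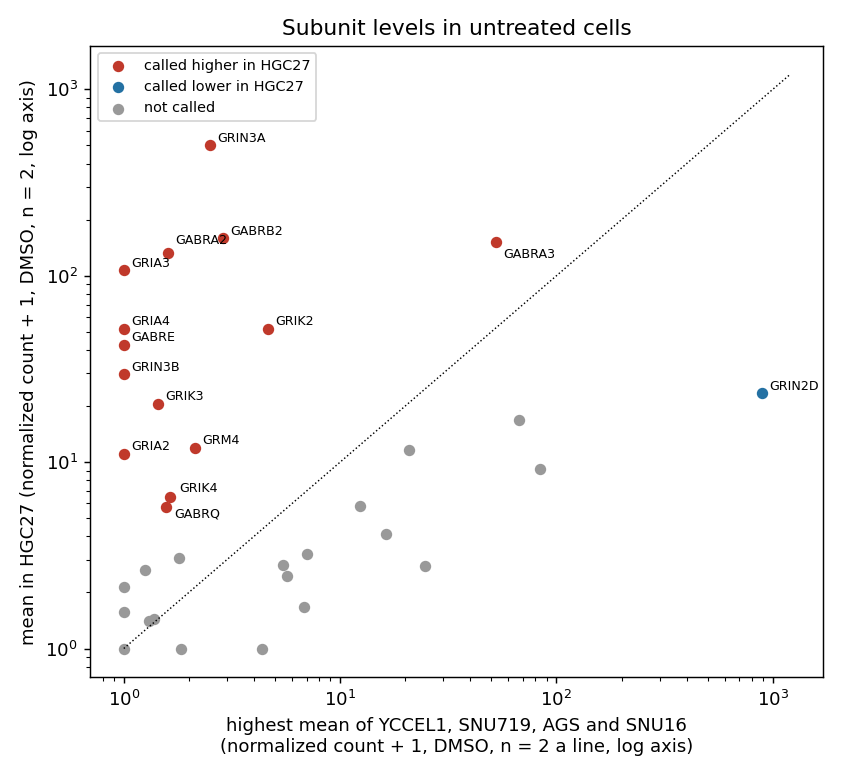
Mean normalized count plus 1 of 34 tested subunit genes in untreated HGC27 (vertical, n = 2) against the highest mean among untreated YCCEL1, SNU719, AGS and SNU16 (horizontal, n = 2 a line), both on log axes; the dotted line marks equal levels. The 14 genes shown that were called higher in HGC27 lie above the line, with GRIN3A at the top, and GRIN2D, called lower, lies at the far right.

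The other lines had fewer genes of their own, in comparisons of the same kind that were also added after the values were seen. GRIN2D, which encodes the GluN2 subunit of early life in the brain, had normalized counts of 913 and 866 in untreated AGS, 394 and 425 in SNU16, 269 and 246 in SNU719, 20.7 and 24.2 in HGC27, and 0.882 and 2.98 in YCCEL1. No neighbours in this order overlapped. Against the mean of the other 4 lines the log2 fold change was 4.13 ± 0.20 in AGS (adjusted p = 9.58e-10), 2.73 ± 0.20 in SNU16 (adjusted p = 5.89e-08), -2.44 ± 0.20 in HGC27 (adjusted p = 1.04e-07) and -6.31 ± 0.20 in YCCEL1 (adjusted p = 1.13e-11). GRIN2C, another GluN2 gene, was called higher in SNU719 (71.7 and 94.9, against 4.03 to 59.4 in the other lines, log2 fold change 2.42 ± 0.32, adjusted p = 3.35e-05). YCCEL1, with 54.2 and 59.4, lay close below it.

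GRIN1, which encodes the GluN1 subunit that every NMDA receptor needs, was called higher in untreated SNU16, with 73.4 and 59.3, against 0 to 29.5 in the other lines (adjusted p = 0.00422). SNU16 was also the line with neuroendocrine markers (CHGA, CHGB, SYP, INSM1, NEUROD1), which summed to 1771 and 1785 in its DMSO libraries, against 7.87 to 88.7 in the other lines, and their part in the GRIN1 level was not tested. GABRA4, an α gene, was called higher in YCCEL1 (20.9 and 11.8, adjusted p = 0.0128) and in SNU719 (21.9 and 25.6, adjusted p = 0.00304), where AGS and SNU16 were listed at 0 and HGC27 had 0 and 3.56. The call in YCCEL1 was lost without YCCEL1 DMSO replicate 1 (adjusted p = 0.133). In all, 1 gene was called higher and 6 lower in YCCEL1, where 3.6% and 7.22% of all tested genes were, 4 higher and 1 lower in SNU719 (5.66% and 4.4%), 1 higher and 3 lower in AGS (4.61% and 5.52%) and 2 higher and 6 lower in SNU16 (6.86% and 5.01%). Without the limit on the fold, 4 were higher and 11 lower in YCCEL1 (18% and 23.4% of all), 7 and 5 in SNU719 (19.8% and 19.3%), 2 and 10 in AGS (19% and 21.7%), 15 and 5 in HGC27 (29.3% and 22.8%) and 4 and 13 in SNU16 (23% and 21.1%). Except for HGC27 itself, the mean of the other 4 lines includes HGC27, so a gene high there can be called lower elsewhere. GRIN3A was called lower in YCCEL1, SNU719 and SNU16 in this way, with 453 and 544 in HGC27 and at most 2.99 in all other untreated lines.

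With DCB, subunit genes were called higher in every line and called lower in none, where 0.197% of all tested genes were called lower in YCCEL1, 0.249% in SNU719, 0.636% in AGS, 0.618% in HGC27 and 0.135% in SNU16. The number called higher was 6 of 38 in YCCEL1, where 7.99% of all tested genes were, 1 in SNU719 (6.38%), 5 in AGS (9.02%), 4 in HGC27 (4.95%) and 3 in SNU16 (2.31%). As shares of the 38 genes these are 15.8%, 2.63%, 13.2%, 10.5% and 7.89% in the same order of lines, where a single gene makes 2.63%. Without the limit on the fold, 9 genes were higher in YCCEL1 (14.6% of all), 3 in SNU719 (13.5%), 5 in AGS (18.5%), 5 in HGC27 (14.7%) and 3 in SNU16 (4.5%). Only 1 gene was lower, in SNU719, where 7.64% of all genes were, as were 6.93% in YCCEL1, 9.13% in AGS, 9.03% in HGC27 and 2.34% in SNU16, and at an unadjusted p below 0.05 limma gave 1 lower gene in SNU719, 2 in SNU16 and none in the other lines. The median log2 fold change of the 38 genes was 0.74 in YCCEL1, 0.64 in SNU719, 0.46 in AGS, 0.54 in HGC27 and 0.15 in SNU16, against 0.09, 0.11, 0.12, 0.04 and 0.01 over all tested genes in the same lines. These counts moved by over 1.5 times in SNU719, to 2 without YCCEL1 DMSO replicate 1 or 2 and to 4 without SNU719 DCB replicate 1, and in SNU16, to 1 without SNU16 DMSO replicate 1 or SNU16 DCB replicate 1.

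**Figure D3:**
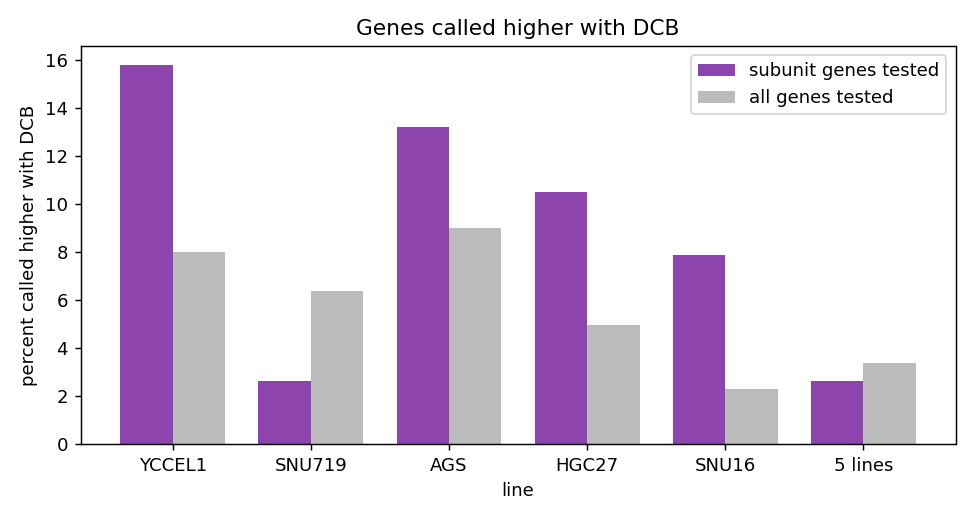
Percent of genes called higher with DCB (adjusted p below 0.05 and log2 fold change above 2) among the 38 tested subunit genes (purple, left bar) and among all 27350 tested genes (grey, right bar), for each line and for the fit over the 5 lines. The subunit share is above the grey bar in YCCEL1, AGS, HGC27 and SNU16 and below it in SNU719 and over the 5 lines.

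Among the GABA-A genes, GABRE was higher with DCB in the most lines. It encodes the ε subunit, which lowers the receptor's sensitivity to some anaesthetics. Normalized counts were 67.8 and 45.3 in DCB-treated SNU16, 17.5 and 8.62 in AGS, 5.52 and 9.26 in YCCEL1 and 0.984 and 6.81 in SNU719, against 0 in all 8 DMSO libraries of these lines. HGC27 had 120.4 and 118 with DCB, against 58.3 and 24.9 with DMSO. The libraries of the treatments overlapped in no line. The gene was called higher in SNU16 (adjusted p = 2.94e-05), AGS (0.000285) and YCCEL1 (0.00198), passed the adjusted p alone in SNU719 (0.0281), and had a log2 fold change of 1.62 ± 0.59 in HGC27 (adjusted p = 0.0638). Over the 5 lines in a fit with a term for the line, GABRE was the subunit called higher (adjusted p = 4.11e-05), where 3.4% of all tested genes were, and none was called lower (0.00731% of all).

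GABRQ, the gene of the θ subunit, lies in the same cluster on the X chromosome and was called higher in HGC27 and AGS. It had 94.4 and 77.0 in HGC27 with DCB, against 3.45 and 6.04 with DMSO, a difference of 3.94 ± 0.54 on the log2 scale (adjusted p = 9.75e-05). In AGS it had 13.5 and 8.66 with DCB, against 0 and 1.12 with DMSO, a difference of 3.02 ± 0.54 on the log2 scale (adjusted p = 0.000765). In SNU719, SNU16 and YCCEL1 every DCB library was at 1.97 or less and every DMSO library at 0. An antisense transcript that overlaps GABRQ, AC244102.3, had 20.6 and 16.3 in HGC27 with DCB, against 18.4 and 16.9 with DMSO, and was listed at 0 in all AGS libraries. GABRA3, the α gene between them, did not share this course. It had 58.0 and 97.9 in HGC27 with DCB, against 179 and 124 with DMSO (log2 fold change -0.97 ± 0.55, adjusted p = 0.245), and its fold change was also negative in YCCEL1, SNU719 and SNU16 and 0.10 in AGS, with no adjusted p below 0.245. MAGEA10, a cancer-testis gene and the other protein-coding gene of the stretch, had 418 and 352 in HGC27 with DCB, against 306 and 445 with DMSO (log2 fold change 0.06 ± 0.60). In YCCEL1, MAGEA10 was called higher, with 8.32 and 12.6 with DCB, against 1.66 and 1.87 with DMSO (2.02 ± 0.60, adjusted p = 0.026). Along chrX:151953124-152657542 (GRCh38) the 4 genes GABRE, MAGEA10, GABRA3 and GABRQ thus differed from each other in the same libraries.

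**Figure D4:**
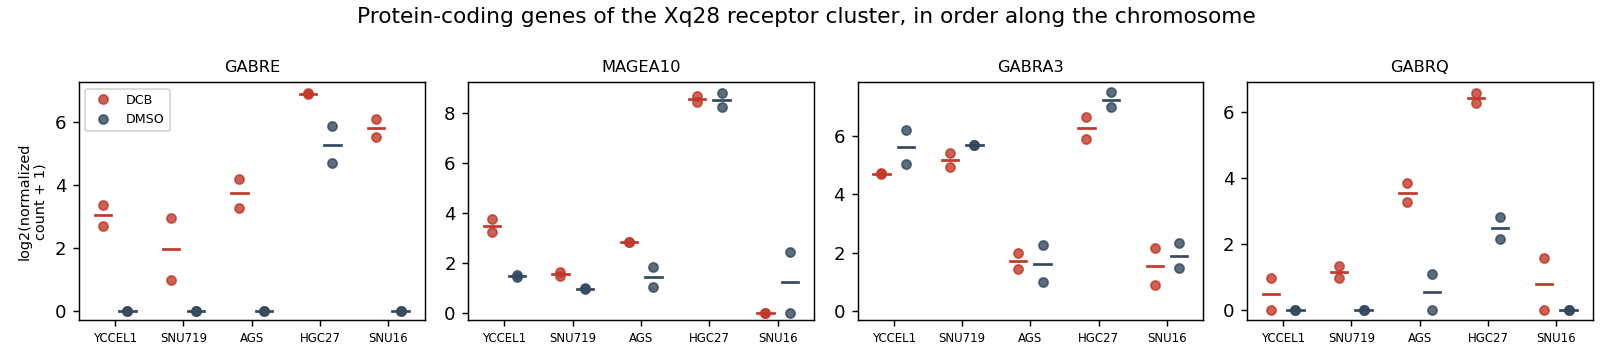
Level of the 4 protein-coding genes of the X chromosome cluster, in chromosomal order, as log2(normalized count + 1) in each line, with DCB (red, left) and DMSO (dark blue, right). Points are libraries and bars their means (n = 2). GABRE is higher with DCB in every line and GABRQ mainly in HGC27 and AGS, while the HGC27 points of MAGEA10 and GABRA3 show no rise.

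The α gene GABRA2 and its neighbour GABRG1 on chromosome 4 were higher with DCB in the EBV+ lines. GABRA2, whose subunit takes part in the calming action of benzodiazepines, had 11.4 and 8.12 in SNU719 with DCB, against 0 and 1.21 with DMSO (log2 fold change 2.84 ± 0.61, adjusted p = 0.0038). It had 2.94 and 16.3 in YCCEL1 with DCB, against 0 and 0 with DMSO (adjusted p = 0.00235). Both were called, but the SNU719 call was lost without SNU719 DMSO replicate 1 (log2 fold change 2.26, adjusted p = 0.0522), and in YCCEL1 the gene was no longer past the fold limit without DCB replicate 2 (adjusted p = 0.0288). AGS and SNU16 were listed at 0 with DCB, and HGC27 had 179.7 and 227 with DCB, against 146 and 117 with DMSO (log2 fold change 0.63 ± 0.61, adjusted p = 0.541). GABRG1, a γ gene, was called higher in HGC27, with 14.7 and 8.55 with DCB, against 1.15 and 0 with DMSO (log2 fold change 3.06 ± 0.38, adjusted p = 4.38e-05). In YCCEL1 it had 2.21 and 3.81 with DCB, and in SNU719 2.88 and 3.02, against 0 in the DMSO libraries of both lines, which passed the adjusted p (0.00196 in YCCEL1 and 0.00191 in SNU719). AGS and SNU16 were at 0 for GABRG1 under both treatments. The other 2 genes of that cluster, GABRA4 and GABRB1, passed no test with DCB. Nor did GABRB2, GABRD, GABRG3, GABRR1 or GABRR2.

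GABRP, the gene of the π subunit known from uterus and epithelia, was higher by 0.61 ± 0.22 (adjusted p = 0.0456) over the 5 lines, with DCB libraries above DMSO libraries in SNU719 (16.8 and 14.9, against 7.35 and 6.91), AGS (14.5 and 9.73, against 7.26 and 5.73), HGC27 (10.4 and 9.52, against 3.56 and 6.10) and SNU16 (15.1 and 13.03, against 10.7 and 11.99). In YCCEL1 they overlapped. Without HGC27 the result over the lines was lost (0.52, adjusted p = 0.0993).

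Of the 7 NMDA receptor genes, 3 were called higher in YCCEL1, where 7.99% of all tested genes were, 3 in AGS (9.02%), 1 in SNU16 (2.31%) and 0 in SNU719 (6.38%) and HGC27 (4.95%). Of the 15 tested GABA-A genes, 2 were called higher in each of YCCEL1, AGS, HGC27 and SNU16 and 1 in SNU719, beside the same shares of all genes. The 4 GluN2 genes did not follow the same course. GRIN2C, the GluN2 gene of the cerebellum, had 78.6 and 84.3 in AGS with DCB, against 19.96 and 11.5 with DMSO (log2 fold change 2.35 ± 0.41, adjusted p = 0.000612). It had 194 and 188 in YCCEL1 with DCB, against 54.2 and 59.4 with DMSO (log2 fold change 1.73 ± 0.41, adjusted p = 0.00713), and 154 and 170.2 in SNU719, against 71.7 and 94.9 (0.96 ± 0.41, adjusted p = 0.119). In HGC27 (11.9 and 9.52, against 11.6 and 4.92) and SNU16 (4.74 and 3.72, against 4.03 and 9.94) the libraries overlapped. Without AGS DMSO replicate 2 the AGS change fell just below the fold limit (1.97, adjusted p = 0.0105).

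GRIN2D passed the test with DCB in YCCEL1 and HGC27, the lines with its lowest untreated levels. In YCCEL1 it had 12.1 and 13.3 with DCB, against 0.882 and 2.98 with DMSO (log2 fold change 2.33 ± 0.25, adjusted p = 1.46e-05), and in HGC27 56.0 and 66.8, against 20.7 and 24.2 (1.41 ± 0.25, adjusted p = 0.000899). Without YCCEL1 DMSO replicate 1 the YCCEL1 change was 1.79 (adjusted p = 1.31e-05), below the fold limit. In SNU719 the libraries were apart by less (316 and 333, against 269 and 246; 0.33 ± 0.25, adjusted p = 0.419). In AGS it had 789.7 and 732 with DCB, against 913 and 866 with DMSO (-0.23 ± 0.25, adjusted p = 0.587), and in SNU16 319 and 315, against 394 and 425 (-0.37 ± 0.25, adjusted p = 0.513). GRIN2A, the GluN2 gene of the mature forebrain, was called higher in YCCEL1, with 12.8 and 23.5 with DCB, against 1.30 and 2.44 with DMSO (2.71 ± 0.52, adjusted p = 0.00179), and in AGS, with 3.45 and 3.98, against 0 and 0 (adjusted p = 0.00506). GRIN2A was also above its DMSO libraries in SNU719 and HGC27, and below them in SNU16, without passing a test there. GRIN2B, the GluN2 gene of the developing forebrain, passed the adjusted p only over the 5 lines (0.011), with DCB values up to 15.4 in AGS and of 0 and 34.4 in the HGC27 libraries.

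GRIN3B and GRIN3A encode the 2 GluN3 subunits and differed in course. GRIN3B had 2.85 and 17.7 in YCCEL1 with DCB, 3.62 and 6.62 in AGS, 6.79 and 5.93 in SNU16 and 1.65 and 0.648 in SNU719, against 0 in all 8 DMSO libraries of these lines. It was called higher in YCCEL1 (adjusted p = 0.00182), AGS (0.00488) and SNU16 (0.00912). HGC27, where it was already present, had 27.9 and 20.1 with DCB, against 36.4 and 20.8 with DMSO, which overlap. The YCCEL1 call fell below the fold limit without DCB replicate 2 (adjusted p = 0.0165), and the SNU16 call was lost without SNU16 DMSO replicate 1, SNU16 DMSO replicate 2 or SNU16 DCB replicate 1 (adjusted p = 0.0521, 0.0539 and 0.0571). GRIN3B overlaps TMEM259 on the other strand, and how reads of the pair were told apart is not settled. TMEM259 averaged 1239 with DCB and 1093 with DMSO in YCCEL1, 1471 and 2052 in AGS, and 1610 and 2102 in SNU16. Its part in the GRIN3B values was not tested. GRIN3A had 548 and 403 in HGC27 with DCB, against 453 and 544 with DMSO (log2 fold change -0.08 ± 0.53), and was listed at 0 in all DCB libraries of the other lines.

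**Figure D5:**
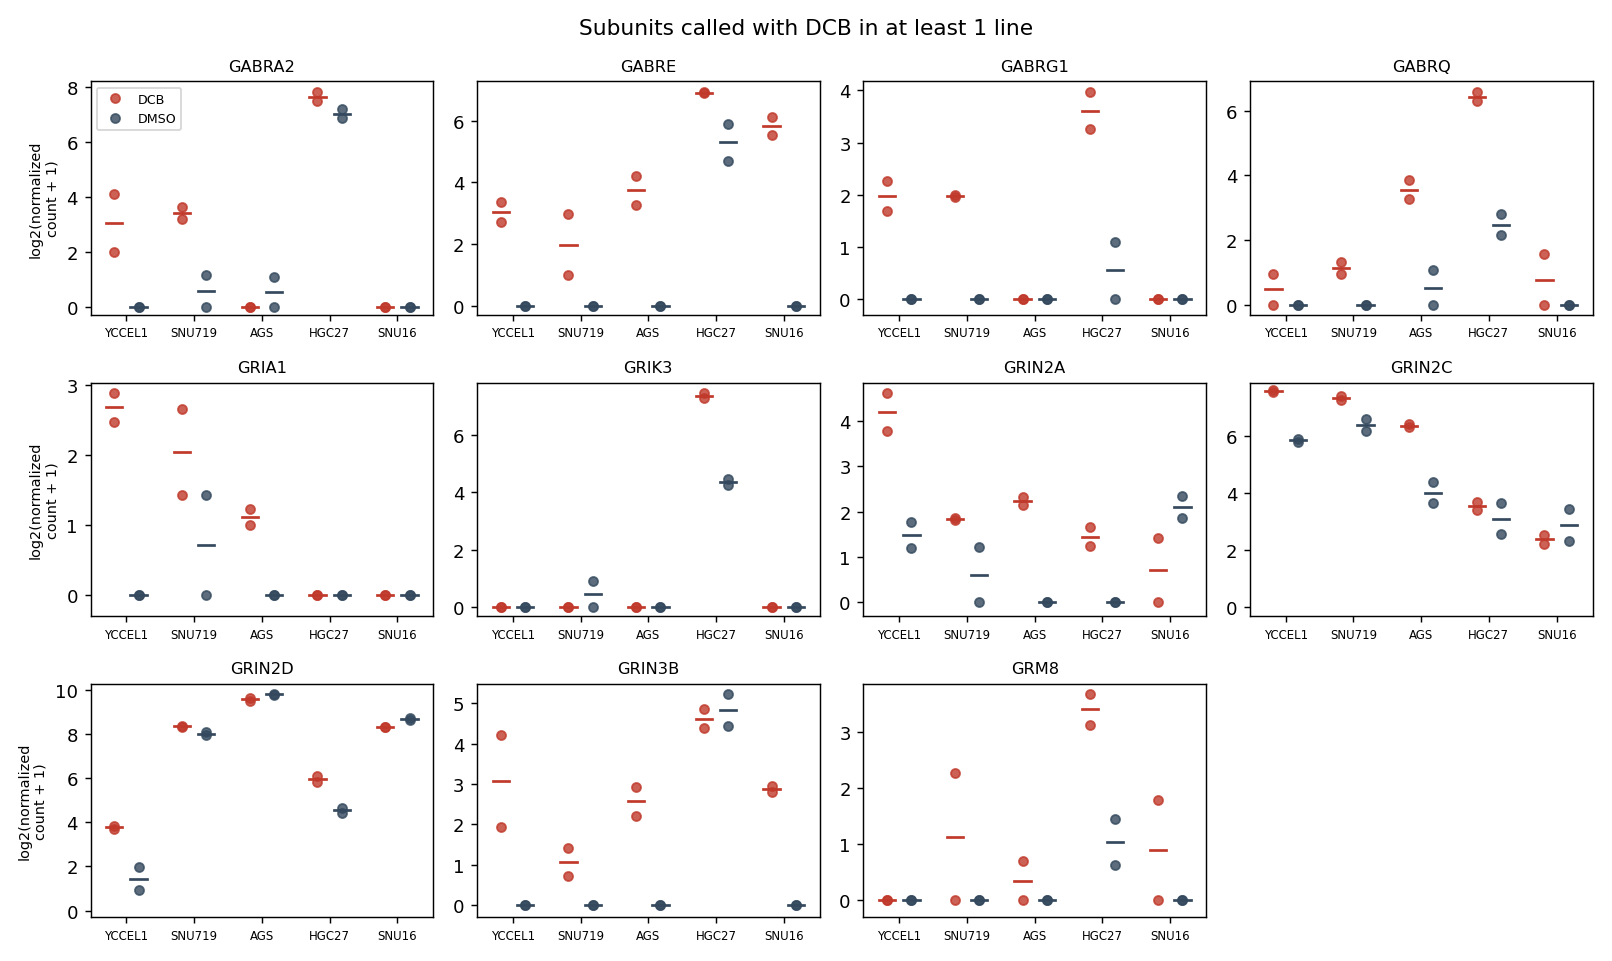
Level of 11 subunit genes called higher with DCB in at least 1 line, as log2(normalized count + 1), with DCB (red, left) and DMSO (dark blue, right) for each line. Points are libraries and bars their means (n = 2). GABRE is above DMSO in all 5 lines, GRIN3B in every line but HGC27, and GRIN2D in YCCEL1, SNU719 and HGC27.

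Kainate and AMPA receptor genes gave a call each. GRIK3, which encodes a kainate subunit of low glutamate affinity, had 153 and 172 in HGC27 with DCB, against 21.1 and 17.9 with DMSO, a log2 fold change of 2.998 ± 0.334 (adjusted p = 1.5e-05). Outside HGC27 it was above 0 in a single library, SNU719 DMSO replicate 2 at 0.892. GRIA1, the GluA1 gene, had 6.40 and 4.55 in YCCEL1 with DCB, against 0 and 0 with DMSO (adjusted p = 0.000707), and was listed at 0 in HGC27 and SNU16 under both treatments. It had 1.68 and 5.29 in SNU719 with DCB, against 1.70 and 0 with DMSO, and 1.35 and 0.994 in AGS, against 0 and 0, without passing a test. The AMPA genes that mark untreated HGC27 did not pass with DCB: GRIA4 had 171 and 113, against 50.9 and 51.1 (1.43 ± 0.50, adjusted p = 0.0545), and GRIA3 had 105 and 132, against 114 and 98.05 (0.15 ± 0.29, adjusted p = 0.799). GRIK4, a kainate subunit gene of high affinity, passed the adjusted p over the 5 lines (0.0424), with all its values at 16.9 or less.

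Of the metabotropic genes, GRM8, a receptor that lowers transmitter release, was called higher in HGC27, with 7.76 and 11.8 with DCB, against 1.73 and 0.556 with DMSO (log2 fold change 2.36 ± 0.66, adjusted p = 0.0177). The call was lost without HGC27 DMSO replicate 2 (1.95, adjusted p = 0.123) or HGC27 DCB replicate 2 (2.09, adjusted p = 0.106). Outside HGC27, GRM8 was above 0 in 3 DCB libraries, at 0.630 to 3.82, and in no DMSO library. GRM2, GRM4, GRM6 and GRM7 passed no test with DCB, and none of their values was above 18.3.

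Over the 5 lines, 12 subunits were higher at an adjusted p below 0.05 (17.9% of all tested genes were) and 0 lower (6.94%), with 1 lower at an unadjusted p below 0.05 by limma. Among them were, besides GABRE, GABRP, GRIN2B and GRIK4, also GABRG1, GABRQ, GRIA1, GRIN2A, GRIN2C, GRIN3B and GRM8, and the median log2 fold change was 0.58, against 0.15 over all genes. In the 4 lines without HGC27, 10 were higher at that threshold (17.8% of all tested genes) and 2 passed the fold limit as well (4.29%), GABRE (adjusted p = 0.000186) and GRIN3B (0.000394). GABRP, GRIN2A (adjusted p = 0.0984) and GRM8 (0.195) no longer passed there. The number called over the 5 lines was 2 without YCCEL1 DCB replicate 1, HGC27 DMSO replicate 1, HGC27 DCB replicate 1 or HGC27 DCB replicate 2, and 3 without SNU16 DCB replicate 1. The neuronal markers were measured in the same libraries: 4 of 8 tested were higher over the 5 lines (NEFL, NEFM, SYN1 and SYT1), and none of the 10 stayed at 0 in HGC27. Their sum was lower with DCB in YCCEL1, at 704 to 719, against 872 to 916 with DMSO. It was higher in SNU719 (1031 to 1041, against 894 to 947), AGS (2932 to 3082, against 1242 to 1321) and HGC27 (1554 to 1565, against 642 to 797). In SNU16 the neuronal sum was 156 to 178 with DCB and 136 to 205 with DMSO. Fibroblast markers (4 of 5 higher) and neuroendocrine markers (3 of 5) and leukocyte markers (3 of 5) were higher too. The neuroendocrine sum in SNU16 was lower with DCB, at 1264 to 1315, against 1771 to 1785 with DMSO. In the other lines that sum was at most 150.4 in any library, and leukocyte markers summed to at most 55.6 in any library. The part of all these markers in the subunit results was not tested.

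Some subunits listed at 0 with DMSO were above 0 with DCB. Of the tested subunits at 0 in both DMSO libraries, those above 0 in both DCB libraries were 8 of 17 in YCCEL1 (47.1%, against 38.8% of all such genes), 5 of 14 in SNU719 (35.7%, against 42.9%), 7 of 19 in AGS (36.8%, against 41.2%), 1 of 4 in HGC27 (25%, against 31.2%) and 2 of 20 in SNU16 (10%, against 21.8%). The subunit shares lay on both sides of those of all genes and rest on few subunits, so no difference is read from them. In the other direction, none of 7, 4, 11, 2 and 10 subunits at 0 in both DCB libraries of YCCEL1, SNU719, AGS, HGC27 and SNU16 was above 0 in both DMSO libraries, against 9.41%, 7.99%, 10.3%, 7.88% and 6.81% of all such genes. GABRE and GRIN3B appeared in this way in YCCEL1, SNU719, AGS and SNU16. GABRG1 did so in YCCEL1 and SNU719, and GRIA1 and GRIK4 in YCCEL1 and AGS.

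The study set EBV+ against EBV- lines, and the response of the lines was compared in that way, as the mean change in the EBV+ pair minus the mean change in the other 3 lines. With 2 lines against 3, what differs between these lines besides the virus cannot be told apart from it. GABRA2 was the subunit called (adjusted p = 0.00189), higher in EBV+ lines, where 2.78% of all tested genes were, and none was called lower (0.658%). Its 4 DCB libraries of EBV+ lines had 2.94 to 16.3, against 0 to 1.21 with DMSO, while AGS and SNU16 were at 0 with DCB and HGC27 had 117 or more under both treatments. Without the fold limit GRIA1 (adjusted p = 0.0128) and GRIN2D (1.06 ± 0.23, adjusted p = 0.00486) were also higher (10.5% of all), and GABRQ (0.0209) and GRIK3 (0.011) lower in EBV+ lines (9.17% of all). The number called was 2 without YCCEL1 DMSO replicate 2, YCCEL1 DCB replicate 2 or SNU16 DCB replicate 1, and in the last 2 settings 1 of them was lower in EBV+ lines. Without HGC27 GABRA2 was again called higher in EBV+ lines (adjusted p = 0.00668, 2.34% of all) and GABRE was called lower (adjusted p = 0.0242, 0.951% of all). GABRE was higher with DCB in each of these lines, most in SNU16 (67.8 and 45.3 with DCB). Its DCB values in AGS (17.5 and 8.62) overlapped those in YCCEL1 (5.52 and 9.26). GRIN2D (1.63 ± 0.26, adjusted p = 0.00209) and GABRG1 (adjusted p = 0.000124) were then higher without passing the fold limit, while GRIA1 (adjusted p = 0.066), GABRQ (0.217) and GRIK3 (0.597) did not pass.

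In the matching comparison of the 3 CIMP+ lines with the 2 CIMP- lines, which uses the same libraries and where other differences between the lines likewise cannot be told apart, GRIN2A was called higher in CIMP+ lines (adjusted p = 0.00687), where 3.68% of all genes were, and none lower (0.534%). DCB values were 12.8 and 23.5 in YCCEL1, 2.65 and 2.51 in SNU719 and 3.45 and 3.98 in AGS, against 1.36 and 2.15 in HGC27 and 0 and 1.68 in SNU16. DMSO values were 1.30 and 2.44 in YCCEL1, 0 and 1.33 in SNU719, and 0 and 0 in AGS. In the CIMP- lines they were 0 and 0 in HGC27 and 2.63 and 4.11 in SNU16. GRIN2A was thus higher with DCB in HGC27 as well, and lower in SNU16, all at low values outside YCCEL1. No subunit was called in this comparison without YCCEL1 DMSO replicate 1, YCCEL1 DCB replicate 2, SNU719 DMSO replicate 1, SNU16 DMSO replicate 2 or SNU16 DCB replicate 1, where the adjusted p of GRIN2A was 0.0121 to 0.0206 but its change was under the fold limit, and 2 were without HGC27 DCB replicate 2. The GRIN2A call was also lost without HGC27 DCB replicate 1 (adjusted p = 0.0199). GRIN2C passed the adjusted p (1.72 ± 0.37, adjusted p = 0.00424), as did GRIA1 (0.00904), both higher in CIMP+ lines (12.8% of all), and GRIK3 was lower there (0.0014, 8.94% of all). Without HGC27, which leaves SNU16 as the single CIMP- line, GRIN2A (adjusted p = 0.0058) and GRIN2C (2.19 ± 0.41, adjusted p = 0.0069) were called higher in CIMP+ lines (3.12% of all) and GABRE lower (adjusted p = 0.0189, 0.68% of all). GRIA1 (adjusted p = 0.0716) and GRIK3 (0.796) did not pass without it. GABRE was higher with DCB in the CIMP+ lines too, but by less than in SNU16.

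The genes around the receptors were followed in lists drawn up for this purpose with earlier results known. Of the genes that make, break down and carry GABA, 7 of 9 were tested over the 5 lines, and 1 was higher and 1 lower at an adjusted p below 0.05. Of all tested genes 17.9% were higher and 6.94% lower at that threshold, which is the background for each list that follows. The one that fell was GAD1, which makes GABA from glutamate, by 0.58 on the log2 scale (SE 0.16, adjusted p = 0.0122). Its levels were 344 and 402.5 in SNU719 with DCB, against 956 and 756 with DMSO, and 366 and 320.3 in AGS, against 840.4 and 829, while in SNU16 they overlapped at 24.5 and 34.9, against 34.6 and 22.4. The one that was higher was SLC6A12, a GABA and betaine transporter (adjusted p = 0.0025), with 17.1 and 5.06 in SNU719 and 15.8 and 5.87 in AGS with DCB, against 0 and 0 in SNU719 and 1.82 and 0 in AGS with DMSO.

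Of the GABA-B receptors, scaffold and chloride transporters of inhibitory synapses, 11 of 12 were tested, and 3 were higher and 1 lower. NLGN2, the adhesion protein of inhibitory synapses, was higher by 0.56 ± 0.12 (adjusted p = 0.0024), as were GABARAPL1 (adjusted p = 0.00793) and GABARAPL2 (0.22 ± 0.06, adjusted p = 0.0124), relatives of the protein that carries GABA-A receptors. GPHN, which encodes the scaffold gephyrin, fell by 0.81 on the log2 scale (SE 0.28, adjusted p = 0.0395). Of glutamate metabolism and transport, 12 of 14 were tested, with 4 higher and 0 lower. These were the transporter genes SLC1A7 (adjusted p = 0.003), SLC1A3 (1.00 ± 0.34, adjusted p = 0.0402) and SLC17A7, which loads glutamate into vesicles (0.91 ± 0.32, adjusted p = 0.0468), and the glutamate dehydrogenase gene GLUD2 (0.0157). Of the auxiliary subunits and scaffold of glutamate receptors, 28 of 33 were tested, with 10 higher and 2 lower. NETO2, an auxiliary subunit of kainate receptors, was called higher over the 5 lines (2.64 ± 0.48, adjusted p = 0.0006), with means of 1608 with DCB and 666 with DMSO in HGC27 and 96.5 with DCB and 2.29 with DMSO in AGS. The others with the smallest adjusted p were GRIP2, a scaffold of AMPA receptors (0.000128), CBLN1, the cerebellin that binds delta receptors (0.00036), and NPTX2, a pentraxin that gathers AMPA receptors (0.00548). Of the other subunits of the Cys-loop family to which GABA-A receptors belong, 19 of 25 were tested, with 2 higher and 0 lower. CHRNE, a subunit of the adult muscle acetylcholine receptor, was called (2.29 ± 0.31), with 14.5 and 21.3 in AGS with DCB, against 0.788 and 0 with DMSO, and no overlap in any line, and HTR3B, a serotonin receptor subunit gene, was higher by 1.27 ± 0.41 (adjusted p = 0.0308). For comparison, 1 of the 12 reference genes was higher and 5 lower.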

How the data were processed

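RNA of 20 libraries was sequenced (5 lines, DCB or DMSO, 2 libraries each). The deposited table holds gene-level signal: estimated counts that the authors normalized between libraries, not whole counts, so no count model was fitted and the depth behind a value is unknown. The submitters' processing notes list GRCh37 and the tools DESeq2 1.14.1, featureCounts 1.5.1 and STAR 2.5.2b. The study's methods name other steps, and the library kit and use of strand differ between the labels and the methods and were not settled. The table's gene positions follow GRCh38: 92.6% of 60064 matched genes have the same start and end in GENCODE. All 20 value columns were used (0 were left out).

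Genes with a sum above 10 over the 20 libraries were tested on log2(value + 1) in limma 3.58.1 (R 4.3.3, lmFit and eBayes with a trend), with 1 mean a group and all groups sharing the spread; the fit over the 5 lines had a term for the line. P-values are two-sided and Benjamini-Hochberg adjusted over all 27350 tested genes, and a call needed an adjusted p below 0.05 with a log2 fold change beyond 2 in either direction. The script was checked on simulated data. CpG pairs and motifs were counted in RefSeq promoter windows. The subunits, lists and tests were chosen with earlier results of these data known. Values per library are given for subunits called with DCB, and other subunits by counts, except those named for untreated lines, chosen after their values were seen, as were the fits of 4 lines without HGC27. Genes of other lists were named by their smallest adjusted p, up to 4 a list. Alternatives were pseudocounts of 0.5 and 5, filters of none and a sum above 100, median-ratio scaling, no trend, a replicate block, each line alone, no fold limit, and each library left out in turn. A few of the subunits enter the counts but are not reported here by name. Figures were drawn with matplotlib 3.10.9.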

Additional observations from a re-analysis of the deposited data

Results flagged for a closer look

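The response of GABRA2 to DCB differed between EBV+ lines and EBV- lines (limma, adjusted p = 0.00189), and that of GRIN2A between CIMP+ lines and CIMP- lines (adjusted p = 0.00687). Both came from a test of the difference itself, whose p reflects the spread between libraries and not between lines. The GRIN2A call was lost in 7 of the 27 alternatives that tested it, and the GABRA2 call in 1 of 28.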

How the results depend on the processing

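The called subunits depended most on the pseudocount, because many values are near 0. With a pseudocount of 5 the number called with DCB was 0 in YCCEL1, 0 in SNU719, 1 in AGS, 2 in HGC27, 1 in SNU16 and 0 over the 5 lines, 0 between EBV+ and EBV- lines and 0 between CIMP+ and CIMP- lines, and in untreated lines 2 in YCCEL1, 1 in SNU719, 2 in AGS and 4 in SNU16. With 0.5 it was 3 in SNU719, 4 over the 5 lines, 2 for EBV and 2 for CIMP. With no fold limit it was 4 in SNU719, 12 over the 5 lines, 5 for EBV and 4 for CIMP, and in untreated lines 15 in YCCEL1, 12 in SNU719, 12 in AGS and 17 in SNU16. With each line fitted alone it was 2 in YCCEL1, 0 in SNU719 and 2 in HGC27. With a sum above 100 it was 2 in HGC27 and 0 for CIMP, which tests fewer genes, and without HGC27 it was 2 over the remaining lines, 2 for EBV and 3 for CIMP. Leaving out each library in turn gave 5 to 7 in YCCEL1, 1 to 4 in SNU719, 4 to 6 in AGS, 3 to 6 in HGC27, 1 to 3 in SNU16, 1 to 3 over the 5 lines, 1 to 2 for EBV and 0 to 2 for CIMP, and in untreated lines 5 to 7 in YCCEL1, 5 to 6 in SNU719, 3 to 5 in AGS, 15 to 18 in HGC27, 7 to 10 in SNU16 and 19 to 24 by the F test. Of 62 single results, 24 kept their call under all alternatives run. Of 1686 single values under an alternative, 1582 kept their call, 104 lost it and 0 reversed. The DCB calls kept under all alternatives were GABRQ and GRIK3 in HGC27 and GABRE in SNU16.

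Libraries with the same replicate number showed no shared deviation (correlations of -0.02 to 0.01 by line). With 2 libraries a group, this cannot settle whether the numbers pair cultures. With a replicate block the number called was 6 in YCCEL1, 1 in SNU719, 5 in AGS, 4 in HGC27, 2 in SNU16, 1 over the 5 lines, 1 for EBV and 1 for CIMP, and in untreated lines 7 in YCCEL1, 5 in SNU719, 4 in AGS, 16 in HGC27, 8 in SNU16 and 21 by the F test.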

Other observations

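Several low subunits had 1 library far from the other of its group. GRIN2B had 0 and 34.4 in HGC27 with DCB, and GABRA4 had 0.548 and 25.02 there. GRIN1 had 32.0 and 2.17 in YCCEL1 with DCB, and 29.5 and 2.04 in HGC27 with DMSO. GABRR1, a ρ subunit gene of the retina, had 13.4 and 0 in SNU16 with DCB. GRIK5 had 1.83 and 37.9 in YCCEL1 with DMSO. In AGS with DMSO, GRM6 had 11.2 and 0.851, and in SNU16 with DMSO, GRM7 had 11.6 and 0.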
